A study of Mus musculus with 2 samples.

Results

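Annexins and S100 proteins are 2 families of calcium-binding proteins, and the genes described here are 10 of them, 4 annexins (Anxa1, Anxa2, Anxa3 and Anxa5) and 6 S100 genes (S100a4, S100a6, S100a8, S100a9, S100a10 and S100a11). They were picked by name, as the symbol that opens the gene annotation of a probe set, out of 22270 named genes measured in mouse kidney arterioles. Each gene has 1 probe set except S100a11, which has 2 and is represented by the brighter.

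Annexins bind acidic phospholipids when calcium rises and so link membranes to the cytoskeleton, take part in vesicle traffic and help to seal damaged membranes. S100 proteins are small EF-hand proteins that mostly form dimers and change shape on binding calcium, which lets them dock onto partner proteins. The families meet in complexes, since S100A10 binds annexin A2 and S100A11 binds annexin A1. S100A8 and S100A9 together form calprotectin, a protein of neutrophils and monocytes that is released in inflammation.

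The study set arterioles of RBP-J cKO mice, which were Ren1d+/cre, against those of wild type mice, which were Ren1d+/+. Both groups were RBP-J flox/flox and carried the R26R ECFP reporter, on a mixed 129Sv and C57Bl6 background at 3 months of age, so that cre at 1 Ren1d allele distinguished the cKO animals. RBP-J binds DNA and carries the signal of activated Notch receptors to their target genes, and the comparison asks what its loss in cells that have expressed renin does to the vessels that hold them. RNA of 4 male cKO animals was pooled on 1 Affymetrix array, and RNA of 2 male and 1 female wild type animals on the other. With 1 array per group there are no replicates, no test of the genotype was possible, the spread between animals is unmeasured, and precision is limited by having so few arrays. Genotype, sex composition and pool cannot be told apart in any value below.

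Levels are the authors' RMA values on the log2 scale, and differences are cKO minus wild type on that scale. Genes whose brighter array was at or over 7.56, the median of all named probe sets, are called above the floor, and 11570 genes were. The median of their differences was 0.02, and the differences varied from gene to gene with a standard deviation of 0.31. Of these 11570 genes 6242 were higher in cKO and 5325 lower. Counts of higher and lower genes above the floor in the lists below stand against that background. Ren1, the renin gene, read 10.19 in cKO and 10.77 in wild type, while Rbpj read 9.02 in cKO and 9.0 in wild type. Deletion is limited to cells with a renin history, and which part of Rbpj the probes read is not known here, so that value checks nothing. Of the smooth muscle marker list, the cell type that forms the arteriole wall, 9 of 12 genes were above the floor, with a median difference of -0.08 and a range of -0.34 to 0.34. All 13 endothelial markers were above it as well. So were all 15 proximal tubule, 10 thick limb and distal tubule, 11 collecting duct and 9 podocyte markers. By the tubule and podocyte markers, the preparations held RNA of kidney cells besides arteriole wall. In such mixed tissue, fewer cells of a type and less RNA per cell cannot be told apart.

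The annexins and S100 genes lay close to equal on both arrays. None of the 10 was 2-fold apart in either direction, where 0.557% of all genes were at least 2-fold higher and 0.202% at least 2-fold lower, so that a count of 0 among 10 genes is what the background alone would give. None was 1.5-fold apart, where 2.83% of all genes were that much higher and 1.49% that much lower. In all 7 of the 10 were higher in cKO by any amount, against 48.4% of all genes. Over the 10 genes the median difference was 0.16, against -0.01 over all genes. For the 7 above the floor it was 0.02, equal to the median of all genes above the floor, of which 0.856% were 2-fold higher and 0.199% 2-fold lower. S100a4, S100a8 and S100a9 lay below the floor on both arrays. The annexins were mostly lower in cKO, in 3 of 4 cases, their median being -0.13. The S100 genes were higher in 6 of 6 cases, their median being 0.27, but S100a8 and S100a9 were lower with the dChip values and S100a11 was lower when differences were centred on a loess trend.

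**Figure D1:**
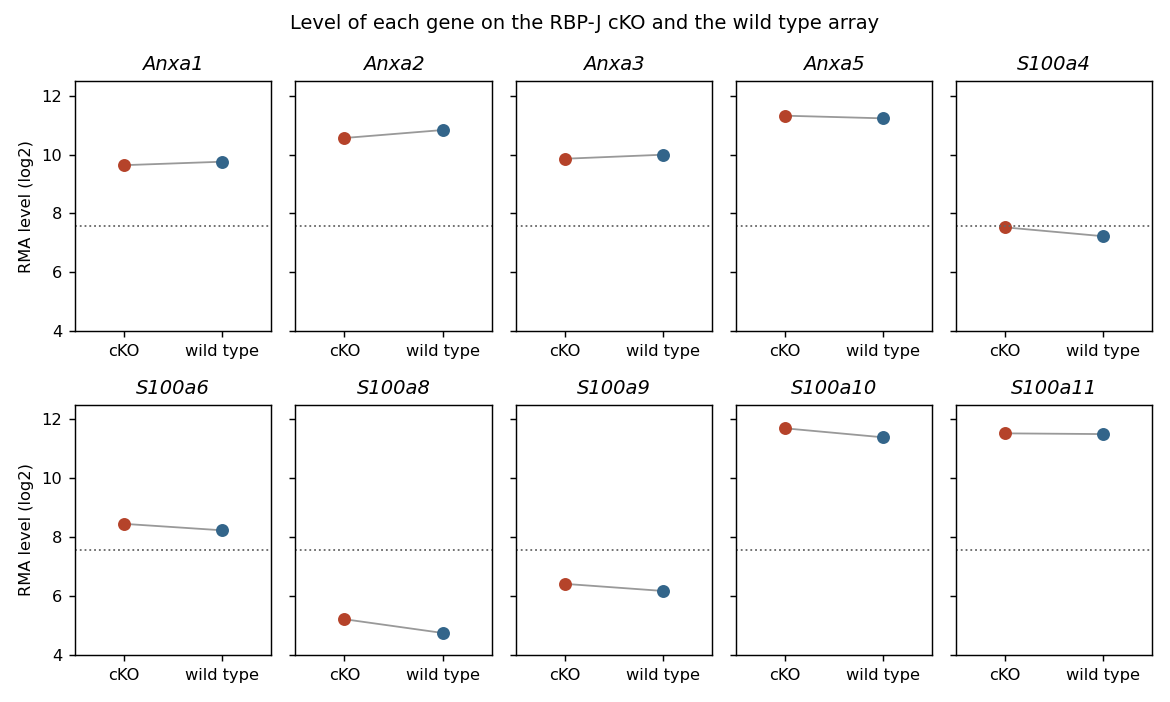
RMA level (log2) of each of the 10 genes on the RBP-J cKO array (left, red) and the wild type array (right, blue), with the dotted line at the floor of 7.56. Each point is 1 array of pooled RNA, and levels of different genes are not comparable because probe sets differ in brightness. The lines are nearly level in all panels, and S100a4, S100a8 and S100a9 lie below the dotted line on both arrays.

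Annexin A2 is a membrane-binding protein of endothelium, epithelium and macrophages that with S100A10 gathers plasminogen and its activator at the cell surface. Its gene Anxa2 read 10.56 in cKO and 10.84 in wild type, a difference of -0.27 or 1.21-fold lower. It was the most negative of the 4 annexins, yet 28.4% of genes above the floor were at least as far apart. The authors' deposited table lists an intensity of 2060 in cKO and 2407 in wild type, or a signed fold of -1.17 between bounds of -1.14 and -1.2.

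Annexin A3 and annexin A1 were nearer to equal. Anxa3, which encodes a small annexin found in neutrophils and endothelium, read 9.859 in cKO and 9.997 in wild type, a difference of -0.14. Anxa1, whose product acts on formyl peptide receptors and restrains the recruitment of neutrophils, read 9.64 in cKO and 9.76 in wild type, a difference of -0.12. In the authors' deposited table the bounds around its signed fold of -1.03 reached -1 and -1.06, so they touched equality.

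Anxa5, encoding the annexin known as a probe for phosphatidylserine on dying cells, was the exception in sign. It read 11.32 in cKO and 11.23 in wild type, a difference of 0.09. The sign did not survive every scaling, since centring on a loess trend over level gave -0.02.

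S100A10, also called p11, differs from other S100 proteins in that it is held in its active shape without calcium. S100a10 read 11.70 in cKO and 11.39 in wild type, a difference of 0.31 or 1.24-fold higher. It was the highest of the 7 genes above the floor, and 23.4% of all genes above the floor were at least as far apart. The authors' deposited table gave an intensity of 3713 in cKO and 2944 in wild type, with a signed fold of 1.26 between bounds of 1.22 and 1.3.

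The partners Anxa2 and S100a10 thus lay on opposite sides of equal. The difference of S100a10 exceeded that of Anxa2 by 0.58 on the log2 scale with RMA and by 0.56 with the dChip values. Relative to Anxa2, S100a10 was 1.49-fold higher in the cKO pool than in the wild type pool. These were the lowest and the highest of the 7 described genes above the floor. How far apart unrelated genes of the array lie was not computed, so the gap is description only. The other pair stayed together more closely, with S100a11 above Anxa1 by 0.14 with RMA and 0.15 with dChip.

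S100A11 is the annexin A1 partner. S100a11 read 11.53 in cKO and 11.50 in wild type, a difference of 0.02, the smallest of the 10. Its dimmer probe set read 11.22 in cKO and 11.12 in wild type, a difference of 0.09. RefSeq lists a pseudogene of S100a11 in the mouse, so which copy each probe set reads is uncertain. Loess centring turned the sign, to -0.09.

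S100A4 and S100A6 are proteins of fibroblasts, macrophages and other motile cells, S100A4 binding non-muscle myosin and S100A6 binding the ubiquitin ligase adaptor CACYBP. S100a4 read 7.53 in cKO, just under the floor, and 7.23 in wild type, a difference of 0.30. S100a6 read 8.45 in cKO and 8.23 in wild type, a difference of 0.22. Both were further apart in the authors' deposited table, with signed folds of 1.39 for S100a4 (bounds 1.26 and 1.54) and 1.22 for S100a6 (bounds 1.13 and 1.32). Both genes kept their sign under every scaling tried.

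The calprotectin genes were dim and gave no stable direction. S100a8 read 5.21 in cKO and 4.75 in wild type, a difference of 0.47, the largest of the 10. S100a9 read 6.41 in cKO and 6.17 in wild type, a difference of 0.24. In the authors' deposited table both had the opposite sign. The intensity of S100a8 was 107 in cKO and 113 in wild type, or a signed fold of -1.06 between bounds of -0.98 and -1.15 that span equality. For S100a9 it was 182 in cKO and 198 in wild type, with bounds of -1 and -1.17 around -1.08. The sign of both genes thus depended on the processing, so these arrays do not show whether either gene differed.

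**Figure D2:**
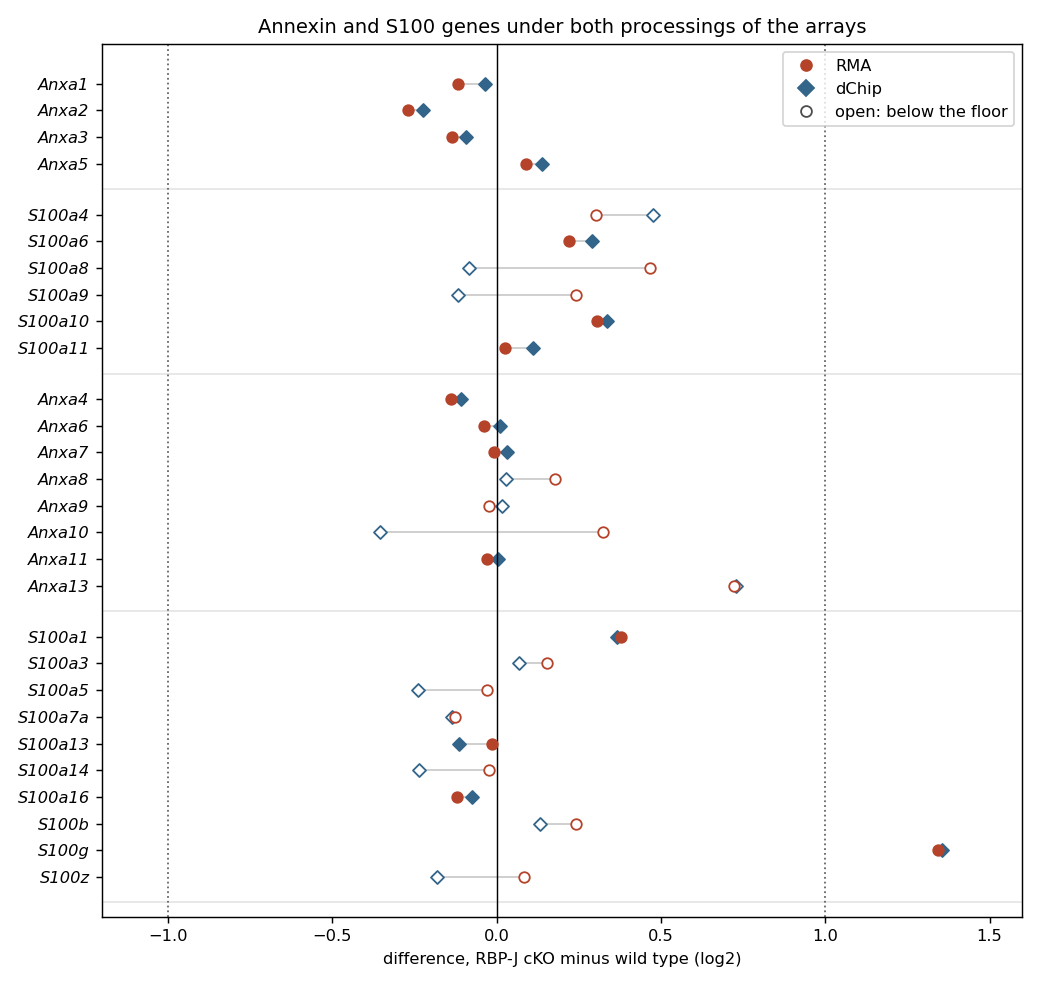
Difference between RBP-J cKO and wild type (log2) for the 10 described genes (upper 2 blocks) and 18 further annexin and S100 genes (lower 2 blocks), as RMA (red circles) and dChip (blue diamonds); open symbols are genes below the floor and dotted lines mark 2-fold. Red and blue symbols lie close together for the filled genes, and S100g alone lies past the dotted line. S100a8 and S100a9 change sides between RMA and dChip. Among the further genes Anxa6, Anxa7, Anxa9, Anxa10, Anxa11 and S100z change sides too.

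Both processings gave the same sign for 8 of the 10 genes, against 81.3% of all genes. The bounds in the authors' deposited table, whose confidence level the sources used here do not give, excluded equality on the higher side for 5 of the 10 and on the lower side for 2. For all genes the shares were 32.2% and 36.8%, so bounds of this kind set most genes of the array apart from equality and single out none of these. None of the 10 carried the mark of the authors' comparison filter, which 326 of the 35512 probe sets in that table have. With so rare a mark, its absence from 10 genes says nothing about them. At a 1.2-fold difference, a threshold chosen after the values were seen, 3 of the 10 were higher (S100a4, S100a8 and S100a10), where 13.4% of all genes were. Anxa2 was the 1 gene lower by that much, where 11.9% of all genes were. With the dChip values the 3 higher genes were S100a4, S100a6 and S100a10, where 14.2% of all genes were, and none was lower by that much, where 14.1% of all genes were.

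The promoters of Anxa2, S100a4, S100a6 and S100a9 are shown because they hold the core of the sequence that RBP-J recognises, TGGGAA. Capitals mark that core, and in Anxa2 the longer form GTGGGAA. Each runs from 250 bases before the gene's start to 50 after it, on the gene's own strand, from RefSeq on GRCm38.p6. They lie at chr9:69453433-69453732 (plus strand), chr3:90603520-90603819 (plus strand), chr3:90612644-90612943 (plus strand) and chr3:90695672-90695971 (minus strand).
Anxa2: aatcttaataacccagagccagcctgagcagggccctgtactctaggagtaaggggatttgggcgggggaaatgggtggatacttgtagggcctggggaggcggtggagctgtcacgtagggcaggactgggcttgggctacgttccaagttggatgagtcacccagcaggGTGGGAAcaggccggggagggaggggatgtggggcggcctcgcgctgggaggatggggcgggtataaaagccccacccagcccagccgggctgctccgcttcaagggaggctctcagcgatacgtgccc
S100a4: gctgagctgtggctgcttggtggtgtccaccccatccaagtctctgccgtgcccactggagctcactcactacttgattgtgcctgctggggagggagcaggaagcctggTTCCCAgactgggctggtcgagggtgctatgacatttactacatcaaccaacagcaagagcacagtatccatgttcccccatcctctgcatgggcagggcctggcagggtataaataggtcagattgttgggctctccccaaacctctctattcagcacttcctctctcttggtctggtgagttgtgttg
S100a6: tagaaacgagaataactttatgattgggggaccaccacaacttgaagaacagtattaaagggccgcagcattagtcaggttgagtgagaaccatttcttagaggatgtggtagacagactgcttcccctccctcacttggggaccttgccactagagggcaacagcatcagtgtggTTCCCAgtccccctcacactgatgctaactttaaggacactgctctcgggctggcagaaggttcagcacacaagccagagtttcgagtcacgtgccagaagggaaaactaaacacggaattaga
S100a9: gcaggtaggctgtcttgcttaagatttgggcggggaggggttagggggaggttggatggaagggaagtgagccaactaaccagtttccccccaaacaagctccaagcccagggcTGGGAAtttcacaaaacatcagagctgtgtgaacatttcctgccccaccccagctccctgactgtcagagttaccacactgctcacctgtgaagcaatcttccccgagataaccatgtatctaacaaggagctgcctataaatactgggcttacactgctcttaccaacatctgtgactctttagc

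In S100a4 and S100a6 the match is on the opposite strand and reads TTCCCA. Promoters of 8 of the 10 genes were matched, and 4 of these held TGGGAA on either strand, against 25.6% of all 32851 promoters of this length. The longer form GTGGGAA, which contains the shorter one, was in 1 of 8, the Anxa2 promoter, at position -79 from the start, against 6.38% of all promoters. The TATA sequence TATAAA, searched on both strands, was in 5 of 8, namely those of Anxa1, Anxa2, S100a4, S100a8 and S100a9, against 13.6% of all promoters. These matches began at positions -32, -17, -31, -30 and 1 from the start, respectively, so they were not all at a like distance. The 4 genes with a TGGGAA match had differences of -0.27, 0.30, 0.22 and 0.24 in the order listed. Anxa2 and S100a6, which were above the floor, differed in direction. S100a4 and S100a9 were below the floor, and S100a9 was at -0.12 with the dChip values. No promoter was available for Anxa3 and S100a10. A match is a run of letters and was not tested as a binding site.

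The S100 genes of mouse chromosome 3 lie in a cluster, with S100a11 and S100a10 next to each other some way along from the rest. Of 15 such genes in RefSeq, 14 were measured and 6 were above the floor, 4 of them higher and 2 lower in cKO. S100a1, which encodes a calcium sensor of muscle and other cells, opens the cluster and read 11.20 in cKO and 10.83 in wild type, a difference of 0.38. The adjoining S100a13 and nearby S100a16 differed by -0.02 and -0.12. S100a4 and S100a6 are separated by S100a5, which was dim and differed by -0.03. For the 6 genes above the floor the differences in chromosomal order were 0.38, -0.02, -0.12, 0.22, 0.02 and 0.31. They did not all share a direction, and the other measured genes of the cluster were too dim to add to this.

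**Figure D3:**
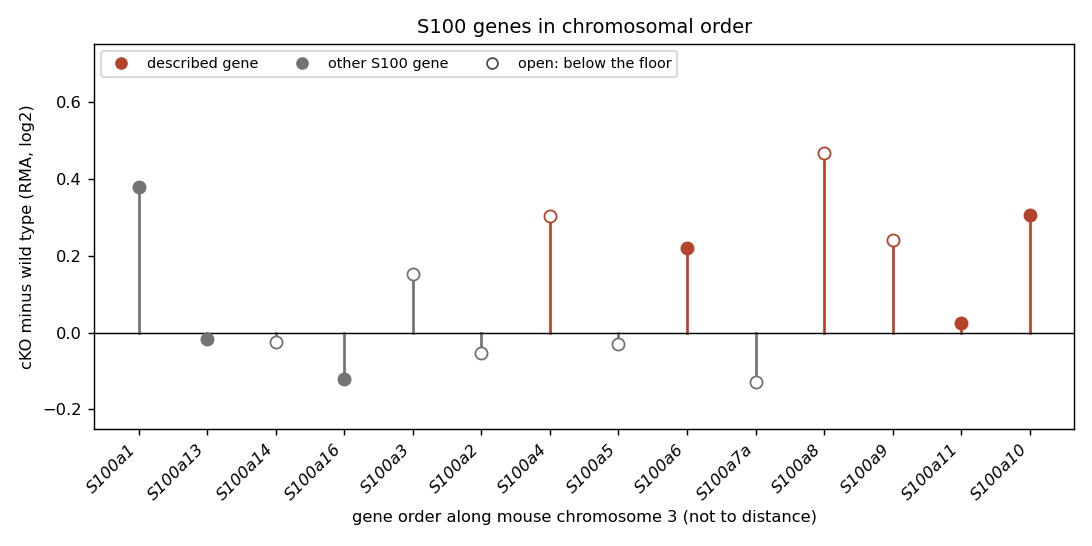
Difference between RBP-J cKO and wild type (RMA, log2) of the 14 measured S100 genes on mouse chromosome 3 in chromosomal order; red marks the described genes, grey the other S100 genes, and open circles the genes below the floor. Higher and lower genes are interleaved, from 0.47 for S100a8 to -0.13 for S100a7a, both of which are below the floor.

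S100g stood out among the relatives. It encodes calbindin-D9k, which carries calcium through the cytosol of distal tubule and intestinal cells, and read 11.17 in cKO and 9.82 in wild type, a difference of 1.34. The authors' deposited table gave an intensity of 2592 in cKO and 1014 in wild type, or a signed fold of 2.56 between bounds of 2.46 and 2.66, and the filter mark. The thick limb and distal tubule list had 9 of 10 genes higher, a median of 0.36 and a range of -0.09 to 0.94. Its part in the S100g difference was not tested. The remaining S100 relatives S100a3, S100a7a, S100a14, S100b and S100z were below the floor, with differences from -0.13 for S100a7a to 0.24 for S100b.

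Other annexins were flat where they were well measured. Anxa4, Anxa6, Anxa7 and Anxa11 were above the floor and differed by -0.14, -0.04, -0.01 and -0.03, a median of -0.03. With the dChip values their median was 0.01 and 3 of the 4 were higher. Anxa13, an annexin of epithelial cells, reached 7.45 in cKO and 6.73 in wild type, under the floor on both arrays, with a difference of 0.72, and the authors' deposited table gave it a signed fold of 1.66 (bounds 1.55 and 1.77). Anxa8, Anxa9 and Anxa10 were dim too, with differences of 0.18, -0.02 and 0.32, and the signs of Anxa9 and Anxa10 turned with the dChip values.

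Genes that work with the annexin A2 and S100A10 complex went both ways. Of 10 above the floor 5 were higher and 5 lower, with a median of -0.02. Plat, the tissue plasminogen activator gene, read 11.49 in cKO and 12.07 in wild type, a difference of -0.58. Trpv5, the distal tubule calcium channel that the complex brings to the cell surface, read 9.05 in cKO and 8.26 in wild type, a difference of 0.79. Dlc1, whose product binds S100A10, differed by -0.50.

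Of 12 membrane repair genes above the floor 10 were lower, and the median was -0.17, from -0.70 to 0.26, or -0.08 with the dChip values. Dysf, encoding dysferlin, a sensor that works with annexins at membrane wounds, read 9.78 in cKO and 10.47 in wild type, a difference of -0.70. The copine gene Cpne1 and the ESCRT gene Vps4b differed by -0.31 and -0.26, while Chmp4b, another ESCRT gene, differed by 0.26. The endothelial list, beside which these values stand because dysferlin is also made in endothelium, had 11 of 13 genes lower and a median of -0.44, from -0.76 to 0.15. Podocyte markers were lower as well, 9 of 9, with a median of -0.42 and a range of -0.63 to -0.10. The part of either cell type in the lower annexin and repair genes was not tested.

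Of 8 receptors and sensors of S100 proteins above the floor 6 were higher, with a median of 0.16. Of all 11570 genes above the floor 6242 were higher. The scavenger receptor gene Cd36 differed by 0.89, the lipopolysaccharide co-receptor gene Cd14 by 0.80 and the myeloid receptor gene Cd33 by 0.58. Tlr4, the calprotectin receptor gene, went the other way, at 8.09 in cKO and 8.53 in wild type, a difference of -0.44. Ager, encoding the receptor RAGE, differed by -0.14. None of the 6 measured formyl peptide receptor genes was above the floor. Fpr2, a further gene of that list, was not measured under that name, so the list leaves the annexin A1 receptors partly unread.

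Partners of other S100 proteins were even, with 3 of 7 higher and a median of -0.0028, or 0.02 with the dChip values. Stub1, a co-chaperone ubiquitin ligase gene, differed by 0.35, Cacybp and the p53 gene Trp53 by 0.20 each, and the non-muscle myosin gene Myh9 by -0.12. Calcium-binding proteins outside both families were higher for 11 of 17 genes, the median being 0.13, or 0.0039 after loess centring. The largest differences were 0.94 for parvalbumin (Pvalb), 0.74 for the leukocyte protein plastin (Lcp1), 0.63 for the brush border protein villin (Vil1) and 0.40 for Nucb2, whose difference was 0.03 with the dChip values. Pvalb is also the highest gene of the thick limb and distal tubule list, so the lists overlap.

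**Figure D4:**
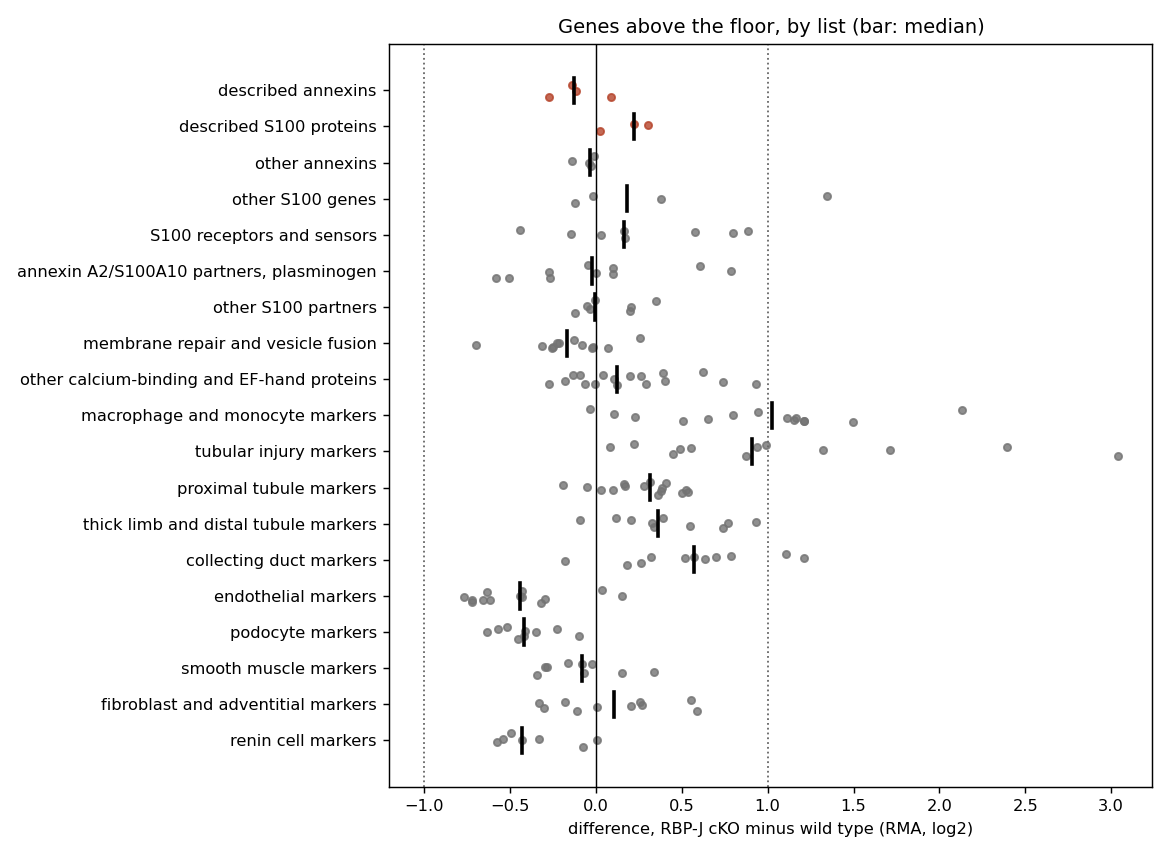
Difference between RBP-J cKO and wild type (RMA, log2) of each gene above the floor in 19 lists, with the median as a black bar and dotted lines at 2-fold; red marks the described genes. The described annexins and S100 genes lie between -0.27 and 0.31, while macrophage, injury and collecting duct markers and S100g reach past 2-fold and endothelial and podocyte markers lie mostly left of 0.

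Macrophages, neutrophils and injured tubule are known sources of several of these proteins, and their markers stand beside the S100 values as follows. Macrophage and monocyte markers were higher for 13 of 14 genes above the floor, the median being 1.03 and the range -0.04 to 2.13. In the authors' deposited table the dChip intensities of the 19 measured genes summed to 18579 in cKO and 12053 in wild type, a sum in which the bright Ly6c1, at 5008 in cKO and 4994 in wild type, weighs most. Tubular injury markers were higher for 12 of 12, the median being 0.91 and the range 0.08 to 3.04, and their deposited dChip intensities, by the authors, summed to 21273 in cKO and 14331 in wild type. Collecting duct markers were higher for 10 of 11 genes, the median being 0.57 and the range -0.18 to 1.21, with 2 genes past 2-fold. Proximal tubule markers were higher for 13 of 15, the median being 0.32 and the range -0.19 to 0.54. Neutrophil markers were dim, since 18 of 19 measured genes were below the floor. Over all 19 the median difference was -0.07, with 9 higher and 10 lower. They ranged from -0.58 to 1.16, the highest being Itgam, an integrin gene that monocytes and macrophages share. Their deposited dChip intensities, by the authors, summed to 3334 in cKO and 3033 in wild type. That sum includes Itgam, at 184 in cKO and 94 in wild type, and Il1b, at 513 in cKO and 288 in wild type. With the dChip values too, 9 of the 19 were higher and 10 lower. Il1b, which macrophages express as well, was the 1 gene above the floor, with a difference of 0.50. Fibroblast and adventitial markers were higher for 6 of 10 genes, the median being 0.11 and the range -0.33 to 0.59. No marker of these lists was listed at 0. The part of macrophage or tubule RNA in the higher S100a4, S100a6 and S100a10 values was not tested.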

How the data were processed

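Pooled arteriole RNA of 4 RBP-J cKO and 3 wild type mice was hybridised to 1 array each. Iron oxide given by perfusion let a magnet collect the vessels after collagenase, per the labels' protocols. The deposited log2 values (34760 probe sets) are on an RMA scale, and the submitters' processing notes name RMA, R 2.15.0 and limma 3.12.1 without roles. The second deposited table holds linear intensity values made with dChip, per the file headers, and the authors' signed fold score with bounds (35512 probe sets). The sources used here do not give the array annotation version or genome build.

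Probe sets were named from the dChip table, updated through a RefSeq gene table of GRCm38.p6: 18664 by accession, 2420 by symbol and 1957 by synonym, with 2134 symbols kept and 10337 probe sets unnamed. Of the 24612 named probe sets in both tables, the brightest by mean level stood for each of the 22270 genes. Differences were computed over all genes, with the floor at the median level and a 2-fold threshold, and no test was run. The arithmetic was tested on simulated data. The 10 genes and all lists were chosen with earlier results of these data known. Named genes are the 10, their measured relatives, and, in each partner or receptor list, the 4 with the largest absolute difference above the floor, of which 1 is not reported here. Marker lists are given by counts and ranges, and S100a2 enters only as a point in the gene order plot. Ager, Itgam, Il1b and Ly6c1 were singled out after their values were seen. Alternatives were other floors, centrings and thresholds, dChip values, the mean over probe sets, and lists without their extreme gene. Python 3.11.15, pandas 2.3.3, NumPy 2.4.6, statsmodels 0.14.6 and matplotlib 3.10.9 were used.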

Additional observations from a re-analysis of the deposited data

How the results depend on the processing

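No paired analysis was possible because each group has 1 array. Of 202 alternative values, 191 moved by less than 0.31, the standard deviation of the differences across genes, or, for counts, stayed within 1.5 times. That margin is about as wide as the S100a10 difference of 0.31, so the tally says little about differences this small. The sign changes of Anxa5 and S100a11 under loess centring fell within it. Median centring shifts all genes alike, and the mean over probe sets could change only S100a11 among the described genes. With the dChip values S100a8 differed by -0.0846 and S100a9 by -0.12, against 0.47 and 0.24, and the cause was not tested. Among the 7 genes above the floor, those higher in cKO past the threshold numbered 0 at 2-fold and 1 at 1.2-fold, a looser threshold that Anxa2 also passed on the lower side. The median over the described genes ranged from -0.09 (loess centring) to 0.16 (no floor, 10 genes). The neutrophil median, 0.50 from 1 gene, was -0.0711 over 19 genes with no floor and 0.83 with dChip. The tubular injury median was 0.55 over 7 genes with the floor at the 75th percentile. Genes of the whole array at least 2-fold higher numbered 99, against 55 with that stricter floor and 476 at 1.5-fold. Those at least 2-fold lower numbered 23, against 45 with no floor, 9 with the stricter floor and 186 at 1.5-fold. Dim probe sets limit S100a4, S100a8 and S100a9, and pooling limits all values.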
